A study of Homo sapiens with 4 samples.

Results

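The genes of MHC class II antigen presentation and their transcriptional activator CIITA were examined in samples labelled as Kasumi-1. This cell line was established from acute myeloid leukemia (AML) and carries the RUNX1-RUNX1T1 fusion. The members were a list of 10 gene symbols: HLA-DRA, HLA-DRB1, HLA-DPA1, HLA-DPB1, HLA-DQA1, HLA-DQB1, HLA-DMA, HLA-DMB, CD74 and CIITA. Of these 10, 7 were matched by Ensembl gene ID among the 18567 genes of the expression table, and HLA-DPB1, HLA-DQB1 and HLA-DMB were not analysed here. RNA sequencing compared a control group called NC (n = 2) with a group in which the histone chaperone ANP32B was knocked down by a short hairpin RNA, called sh-ANP32B (n = 2). Per the labels the NC samples were untreated and carried no hairpin, but a control hairpin, delivered by lentivirus with puromycin selection, stands in the study's methods. All 4 samples were therefore the same cell line, and which ANP32B hairpin was used in each sh-ANP32B sample was not given in the labels.

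MHC class II molecules are pairs of an alpha and a beta chain that present peptides from the endosome to CD4+ T cells. The invariant chain CD74 fills their groove until proteases degrade it, and HLA-DM then exchanges the remaining fragment for a peptide. CIITA does not bind DNA itself; it is recruited by RFX, CREB and NF-Y factors on the X and Y boxes of class II promoters, and surface HLA-DR is a routine marker in the immunophenotyping of AML.

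The promoter elements that RFX and NF-Y factors are known to contact are shown here, where their letters were found, because the later sections give the levels of those factors. A window from 250 bases before to 50 bases after the transcription start was matched in RefSeq (GRCh38.p14) for 8 of the 10 members, with HLA-DRA and CIITA unmatched. The letters CNAGNNAC were searched as the X element and ATTGG, or CCAAT on the other strand, as the Y element, and these letters were chosen after the windows of the members had been read. X letters on the gene strand followed by Y letters at a distance of 10 to 40 bases were found in windows of CD74, HLA-DRB1, HLA-DQA1, HLA-DQB1 and HLA-DMA. The stretches of the 4 of these genes with a measured level lie on the minus strand at chr5:150412953-150412999 for CD74, chr6:32589884-32589935 for HLA-DRB1 and chr6:32953166-32953218 for HLA-DMA, and on the plus strand at chr6:32637296-32637348 for HLA-DQA1. They read as follows from 5′ to 3′ on the gene strand, with the X and Y letters in capitals.
CD74: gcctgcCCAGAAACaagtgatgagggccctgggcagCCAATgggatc
HLA-DRB1: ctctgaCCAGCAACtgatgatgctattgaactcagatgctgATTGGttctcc
HLA-DQA1: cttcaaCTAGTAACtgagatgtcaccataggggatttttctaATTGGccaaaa
HLA-DMA: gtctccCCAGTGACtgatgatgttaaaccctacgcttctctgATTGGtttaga

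The X and Y letters were 27 bases apart in HLA-DRB1, 28 in HLA-DQA1 and HLA-DMA, and 22 in CD74, where the Y letters ran in the opposite orientation. The Y letters lay 41 bases before the RefSeq transcription start in HLA-DRB1, 48 in CD74, 63 in HLA-DQA1 and 74 in HLA-DMA. The gene positions printed below came from GENCODE 44 and start elsewhere for CD74, HLA-DQA1 and HLA-DMA. Among all 34943 promoter windows of the same length, 39.3% held the X letters and 34.6% the Y letters on either strand, and 1.11% held the spaced pair. Because the letters were chosen from the windows of the members, these shares do not measure how unusual the members are. The windows of HLA-DMB, HLA-DPA1 and HLA-DPB1 did not hold the spaced pair of these letters. A match is a description of the letters and not of binding in Kasumi-1.

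Expression was given as TPM, a share of transcripts that is divided by transcript length and by the total of the sample, so that levels can be compared between genes. ANP32B, the targeted gene, measured 383.8 and 392.0 TPM in NC against 51.82 and 41.17 TPM in sh-ANP32B, and its sh-ANP32B mean was 12% of the NC mean. Its log2 fold change was −3.04 (SE 0.15, adjusted p = 0.00516 by limma). Here and below, fold changes are sh-ANP32B against NC on the log2(TPM + 1) scale, which understates changes of low genes, intervals are 95%, and adjusted p is the Benjamini-Hochberg value of limma over 16817 genes. Under an adjusted p of 0.05, 559 genes (3.32%) were called, 360 higher and 199 lower, and scaling by median of ratios turned this split to 236 higher and 284 lower. Without the abundance trend limma called 0 genes, with 3701 at an unadjusted p under 0.05, so every call below rests on that trend. Mitochondrial transcripts took 12.95% and 13.13% of TPM in NC against 11.44% and 8.43% in sh-ANP32B. The gap between the sh-ANP32B replicates moved with the GC content of genes (Spearman's rho 0.577 across 15427 genes), against −0.206 for the NC replicates.

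The HLA values need a remark before they are read. The hg38 genome sequence used here holds 261 alternate contigs, 16 of them from chromosome 6, and several of the latter carry other haplotypes of the MHC. When the transcripts of the members were aligned to these contigs, copies with at least 90% identity over at least 80% of the transcript were found for HLA-DRA, HLA-DRB1, HLA-DPA1, HLA-DPB1, HLA-DQA1, HLA-DMA and HLA-DMB on 7 contigs each and for HLA-DQB1 on 6. Copies of HLA-DRA were 99.35% to 100% identical to its transcript and those of HLA-DMA 99.82% to 99.91%. Those of HLA-DRB1 were 91.97% to 95.26% identical and those of HLA-DQA1 90.46% to 92.94%. Levels of different HLA genes may therefore not be comparable, and the part of the copies in them was not tested. CD74 and CIITA, which lie outside the MHC, had none. The table held 1581 gene IDs that were not named by GENCODE 44, the annotation used here for the primary chromosomes, and they took 3.03% to 3.57% of TPM in each sample. Whether copies of class II genes are among these IDs cannot be told from the tables used here, and how reads were shared among copies was not stated. Each HLA value below is therefore the value of the primary-assembly gene alone.

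Levels in the MHC were low as a whole. From HLA-F to HLA-DPB1 (chr6:29722775-33089696, hg38), 77 of 137 protein-coding genes were in the table (56.2%), close to the 58.2% of all other protein-coding genes. Their mean TPM had a median of 4.88, against 25.8 for the 11587 others. The part of alternate copies in these low levels was not tested.

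**Figure D1:**
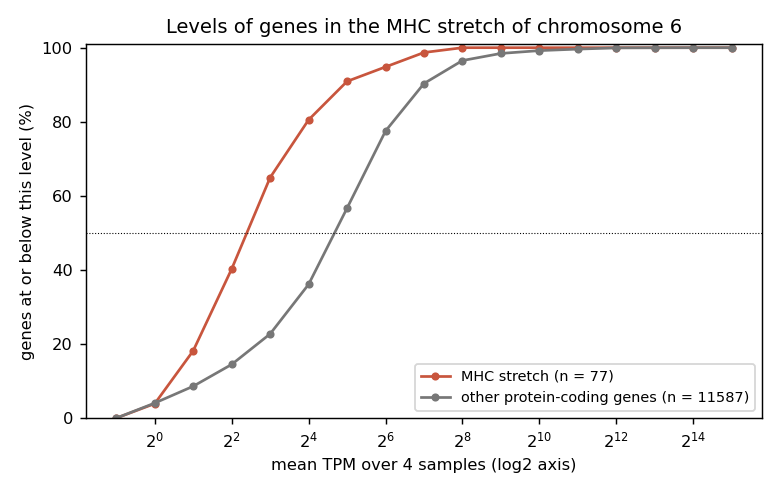
Cumulative share of genes (y axis, %) at or below a mean TPM over 4 samples (x axis, log2 scale) for 77 genes of the MHC stretch and 11587 other protein-coding genes. The curve of the MHC genes lies to the left, with a median of 4.88 TPM against 25.8 TPM.

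Over the 4 samples, the mean level was 945 TPM for CD74, 71.0 for HLA-DRB1, 15.3 for CIITA, 3.20 for HLA-DRA, 2.20 for HLA-DMA, 1.37 for HLA-DQA1 and 0.516 for HLA-DPA1. The ranges of CD74, HLA-DRB1, CIITA and HLA-DRA did not overlap, so their order was the same in every sample. The ranges of HLA-DRA and HLA-DMA overlapped, and HLA-DRA was the higher gene in both NC samples and HLA-DMA in both sh-ANP32B samples. HLA-DMA, HLA-DQA1 and HLA-DPA1 followed in this order in each of the 4 samples, although the range of each over all samples overlapped that of the next. Because bulk RNA was measured, fewer cells expressing a gene and less RNA per cell cannot be told apart.

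**Figure D2:**
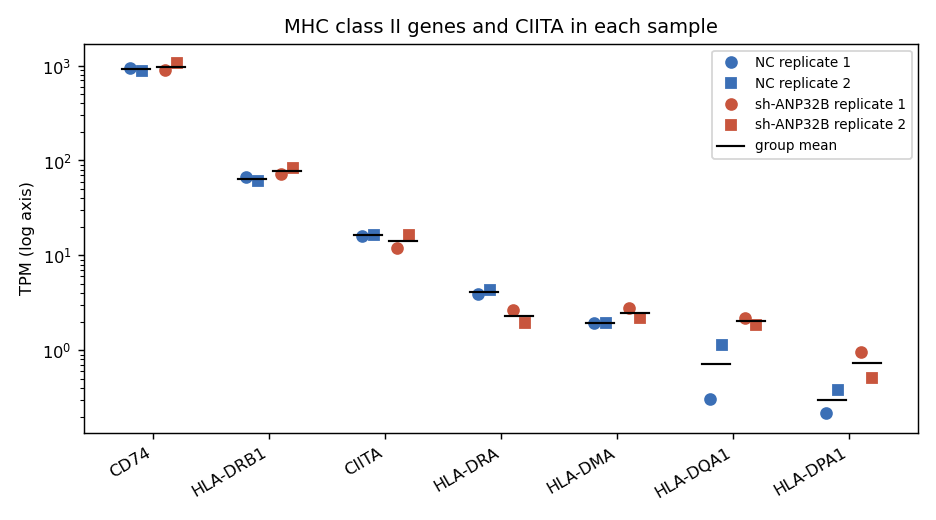
TPM (y axis, log scale) of the 7 members with a value in each of the 4 samples, circles for replicate 1, squares for replicate 2 and lines for group means. CD74 sits between 870.0 and 1056 TPM in every sample.

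CIITA (ENSG00000179583, chr16:10866222-10943021, plus strand), the activator on which class II transcription depends, measured 16.0 and 16.41 TPM in NC against 12.05 and 16.56 TPM in sh-ANP32B. One sh-ANP32B sample was below both NC samples and the other above both, so the groups overlapped. The means were 16.2 ± 0.286 and 14.3 ± 3.19 TPM (SD, n = 2), and the log2 fold change was −0.18 (SE 0.206, interval −0.68 to 0.31, adjusted p = 0.642). CIITA was 0.43 log2 units higher in sh-ANP32B replicate 2 than in replicate 1, where genes within 1 percentage point of its GC content had a median gap of 0.11. Without sh-ANP32B replicate 1 its fold change turned to 0.03, and it was not called in that case either.

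CD74 (ENSG00000019582, chr5:150401637-150412969, minus strand), the invariant chain and also the receptor for the cytokine MIF, measured 952.5 and 870.0 TPM in NC against 900.0 and 1056 TPM in sh-ANP32B. The groups overlapped, and the means were 911 ± 58.3 and 978 ± 111 TPM (SD, n = 2). The log2 fold change was 0.10 (SE 0.137, interval −0.23 to 0.43, adjusted p = 0.715). After correction for GC content the value was −0.05, and the direction for CD74 was therefore not settled. The 2 sh-ANP32B replicates differed by 0.23 log2 units, close to the 0.20 of genes of like GC content.

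HLA-DR is the most abundant class II molecule on most antigen-presenting cells and is made of the chains of HLA-DRA and of an HLA-DRB gene. HLA-DRA (ENSG00000204287, chr6:32439878-32445046, plus strand) measured 3.946 and 4.3 TPM in NC against 2.627 and 1.927 TPM in sh-ANP32B. Both sh-ANP32B samples were below both NC samples. The log2 fold change was −0.65 (SE 0.269, interval −1.29 to −0.01) with an unadjusted p of 0.0474 and an adjusted p of 0.205 by limma, which did not pass the threshold.

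HLA-DRB1 (ENSG00000196126, chr6:32577902-32589848, minus strand) measured 67.03 and 60.45 TPM in NC against 72.8 and 83.59 TPM in sh-ANP32B. Here both sh-ANP32B samples were above both NC samples, with means of 63.7 ± 4.65 and 78.2 ± 7.63 TPM (SD, n = 2). The log2 fold change of 0.29 (SE 0.145, interval −0.06 to 0.64, adjusted p = 0.284) did not pass the test. Without sh-ANP32B replicate 1 it was 0.39, and with each of the other samples left out in turn it lay between 0.19 and 0.36.

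HLA-DRB5, a second DRB gene present on some haplotypes only, measured 20.3 and 17.37 TPM in NC against 29.02 and 38.2 TPM in sh-ANP32B. The groups did not overlap, and the log2 fold change was 0.79 (SE 0.194, interval 0.33 to 1.26, adjusted p = 0.0744). It passed the threshold after correction for GC content (0.68, adjusted p = 0.0243 by limma), a setting that called 2557 of 15427 genes. Under median-of-ratios scaling HLA-DRB5 did not pass (0.71, adjusted p = 0.102 by limma). HLA-DRB1 and HLA-DRB5 are close in sequence, and reads could be split between them, so each value is uncertain. Their sum was 87.33 and 77.82 TPM in NC against 101.8 and 121.8 TPM in sh-ANP32B, and HLA-DRB5 took 23.2% and 22.3% of it in NC and 28.5% and 31.4% in sh-ANP32B. The ratio of HLA-DRB1 to HLA-DRA in TPM was 17 and 14.1 in NC and 27.7 and 43.4 in sh-ANP32B. Alternate copies are closer in sequence for HLA-DRA than for HLA-DRB1, and the part of this in the ratio was not tested. The difference between the fold changes of the alpha and beta chain genes was not tested either.

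HLA-DQA1 (ENSG00000196735, chr6:32628179-32647062, plus strand), the alpha chain of HLA-DQ, measured 0.3079 and 1.135 TPM in NC against 2.173 and 1.861 TPM in sh-ANP32B. Both sh-ANP32B samples were higher, but the NC values differed from each other by 0.71 on the log2(TPM + 1) scale, which understates gaps at such low values. The log2 fold change was 0.85 (SE 0.369, interval −0.03 to 1.73, adjusted p = 0.224). Reads of HLA-DQA1 may be shared with its paralog HLA-DQA2, so its value is uncertain. HLA-DPA1 (ENSG00000231389, chr6:33064569-33080775, minus strand), the alpha chain of HLA-DP, measured 0.2162 and 0.3806 TPM in NC against 0.9521 and 0.5133 TPM in sh-ANP32B. All 4 values were under the 1 TPM required in at least 2 samples, and HLA-DPA1 was not tested.

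HLA-DMA (ENSG00000204257, chr6:32948613-32969094, minus strand), the alpha chain of the peptide exchange factor HLA-DM, measured 1.923 and 1.947 TPM in NC against 2.758 and 2.168 TPM in sh-ANP32B. The groups did not overlap, and the log2 fold change was 0.23 (SE 0.284, interval −0.45 to 0.91, adjusted p = 0.673). HLA-DOB, the beta chain of HLA-DO, which inhibits HLA-DM, measured 1.835 and 1.023 TPM in NC against 1.562 and 1.173 TPM in sh-ANP32B. Its groups overlapped, with a log2 fold change of −0.02 (interval −0.83 to 0.79, adjusted p = 0.981). HLA-DOA was not analysed here.

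Counted together, 0 of the 6 tested members passed an adjusted p of 0.05 by limma, against 3.32% of all genes tested, and 1 (HLA-DRA) had an unadjusted p under 0.05, against 23.8% of all genes. Under a looser criterion, an unadjusted p under 0.05 with an absolute log2 fold change over 0.5, HLA-DRA was again the 1 member that passed, against 18.6% of all genes and 6.55% for lower genes alone. HLA-DRA no longer passed this criterion without NC replicate 1 (unadjusted p = 0.15 by limma), without NC replicate 2 (0.219), where HLA-DQA1 passed, or without sh-ANP32B replicate 2 (0.133). The groups did not overlap in 3 members that were higher (HLA-DRB1, HLA-DQA1 and HLA-DMA) and 1 that was lower (HLA-DRA), where 33.2% and 21.4% of all genes did the same (54.6% in all). The median log2 fold change of the 6 was 0.17, against 0.08 for all genes tested. The summed level of the 5 HLA members was 73.42 and 68.21 TPM in NC against 81.31 and 90.06 TPM in sh-ANP32B, most of it HLA-DRB1.

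**Figure D3:**
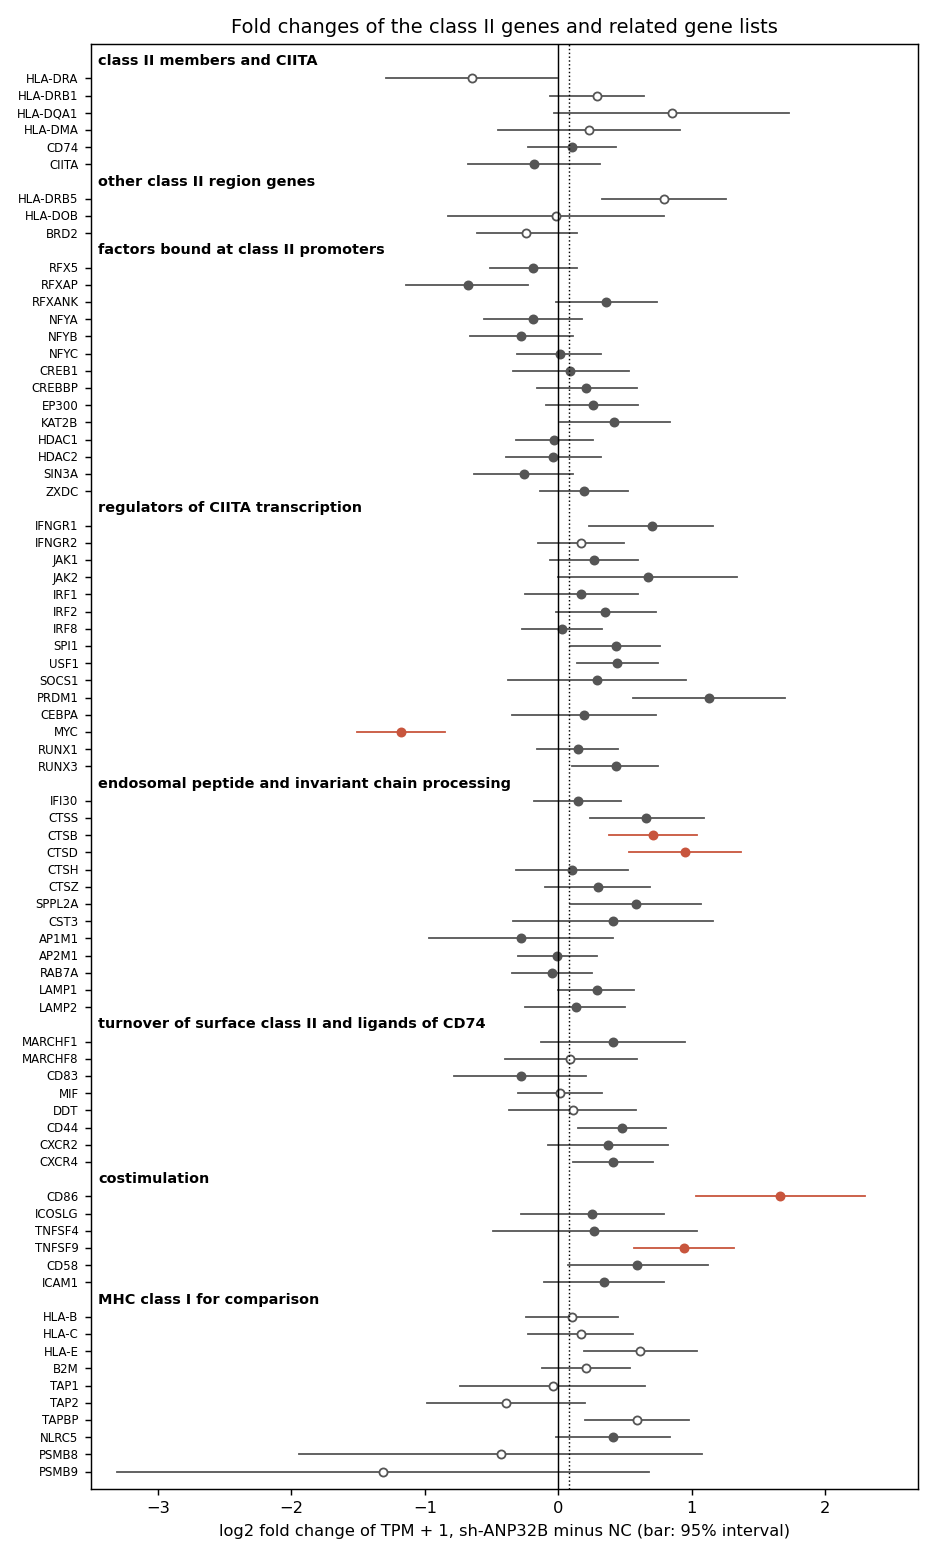
Log2 fold changes of TPM + 1 (x axis, sh-ANP32B minus NC, points with 95% intervals) of the tested members and of most tested genes of the related lists. Red marks an adjusted p under 0.05, open circles mark genes with a copy on an alternate contig, the dotted line is the median of all genes at 0.08, and no member is red.

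The factors that assemble on class II promoters came next in the pathway. All 14 listed genes were tested, and 0 passed the adjusted threshold by limma, with 2 (RFXAP and KAT2B) at an unadjusted p under 0.05, where 23.8% of all genes were, and a median log2 fold change of −0.01. RFXAP, a subunit of the RFX complex on the X box, measured 16.98 and 16.71 TPM in NC against 11.16 and 9.141 TPM in sh-ANP32B. Both sh-ANP32B samples were lower, and the log2 fold change was −0.68 (SE 0.190, interval −1.14 to −0.23, adjusted p = 0.0974). With a correction for GC content, where 2557 of 15427 genes were called, RFXAP passed the threshold (−0.69, adjusted p = 0.0211 by limma). Under median-of-ratios scaling RFXAP did not pass (−0.77, adjusted p = 0.0742 by limma).

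The other RFX subunits gave −0.19 for RFX5 (adjusted p = 0.459) and 0.36 for RFXANK (adjusted p = 0.236) as log2 fold changes. For the subunits of NF-Y, which is known to contact the Y box of class II promoters, these were −0.19 for NFYA (adjusted p = 0.512), −0.28 for NFYB (adjusted p = 0.348) and 0.01 for NFYC (adjusted p = 0.984). None of these 5 subunits passed the test, and the value of NFYC changed sign under other scalings.

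Of 17 genes listed as regulators of CIITA transcription, 16 were tested. In this list 0 were higher (background 2.14%) and 1 lower (background 1.18%) at the adjusted threshold by limma, 7 had an unadjusted p under 0.05 (23.8% over all genes), and the median log2 fold change was 0.28. MYC, a transcription factor that drives growth, measured 130.8 and 143.8 TPM in NC against 56.72 and 63.24 TPM in sh-ANP32B. It fell by 1.18 on the log2 scale (SE 0.137, adjusted p = 0.0261), with both sh-ANP32B samples below both NC samples.

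PRDM1, which encodes a repressor of CIITA in plasma cells, measured 2.223 and 2.327 TPM in NC against 6.07 and 6.271 TPM in sh-ANP32B. The groups lay apart, and the log2 fold change of 1.13 (SE 0.240, interval 0.56 to 1.70) had an adjusted p of 0.0577 by limma. PRDM1 was named after its value was seen, as was IFNGR1, a chain of the interferon gamma receptor, with a log2 fold change of 0.70 (adjusted p = 0.0987). The myeloid factor SPI1 had a log2 fold change of 0.43 (adjusted p = 0.131).

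The log2 fold change of IRF1, a factor induced by interferon gamma, was 0.17 (interval −0.25 to 0.60, adjusted p = 0.614). IRF8, a factor of monocytes and dendritic cells, gave 0.03 (interval −0.27 to 0.33, adjusted p = 0.920). Neither gene passed the test, and IRF8 changed sign under other scalings.

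Peptide loading also needs proteases and carriers of the endosome, and 13 of 15 listed genes were tested. At the adjusted threshold by limma 2 were higher (background 2.14%) and 0 lower, 4 had an unadjusted p under 0.05 (background 23.8%), and the median log2 fold change was 0.29. CTSD, the aspartic protease cathepsin D, measured 765.3 and 683.5 TPM in NC against 1196 and 1636 TPM in sh-ANP32B, and rose by 0.95 (SE 0.175, adjusted p = 0.0448). CTSB, the cysteine protease cathepsin B, measured 438.7 and 381.8 TPM in NC against 626.7 and 720.2 TPM in sh-ANP32B, and rose by 0.71 (SE 0.139, adjusted p = 0.0482). The groups did not overlap for either gene.

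Both calls were near the threshold and were lost without either NC replicate, with adjusted p by limma up to 0.164 for CTSD and 0.449 for CTSB. They were also lost under median-of-ratios scaling, at 0.86 (adjusted p = 0.0601) and 0.62 (adjusted p = 0.0701). CTSS, the protease that trims CD74 in antigen-presenting cells, measured 74.43 and 85.92 TPM in NC against 147.0 and 110.3 TPM in sh-ANP32B. Its log2 fold change was 0.66 (SE 0.176, interval 0.24 to 1.09, adjusted p = 0.0883). It passed the threshold with a GC correction (0.65, adjusted p = 0.00993 by limma), where 2557 of 15427 genes were called. Under median-of-ratios scaling CTSS did not pass (0.58, adjusted p = 0.113 by limma). IFI30, a thiol reductase that opens disulfide bonds of antigens, gave 0.15 (adjusted p = 0.568), and LGMN was not analysed here.

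The 8 genes listed for turnover of surface class II and for ligands and partners of CD74 were tested, and 0 passed by limma, with 2 at an unadjusted p under 0.05 (background 23.8%) and a median log2 fold change of 0.24. The CD74 ligand MIF, named after its value was seen, measured 591.0 and 573.1 TPM in NC against 541.9 and 635.7 TPM in sh-ANP32B. Its groups overlapped, as those of CD74 did.

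Costimulatory molecules are presented to T cells beside class II. Of 10 listed genes 6 were tested, of which 2 were higher (background 2.14%) and 0 lower by limma, 3 had an unadjusted p under 0.05 (background 23.8%), and the median log2 fold change was 0.47. CD86, a ligand of CD28 on T cells, measured 1.655 and 1.511 TPM in NC against 8.297 and 6.206 TPM in sh-ANP32B, and rose by 1.66 (SE 0.265, adjusted p = 0.0392). TNFSF9, the ligand of the costimulatory receptor 4-1BB, measured 32.25 and 32.84 TPM in NC against 57.69 and 69.93 TPM in sh-ANP32B, and rose by 0.94 (SE 0.156, adjusted p = 0.0411). The groups lay apart in both genes, and the call of TNFSF9 was lost without either NC replicate (adjusted p up to 0.132 by limma).

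**Figure D4:**
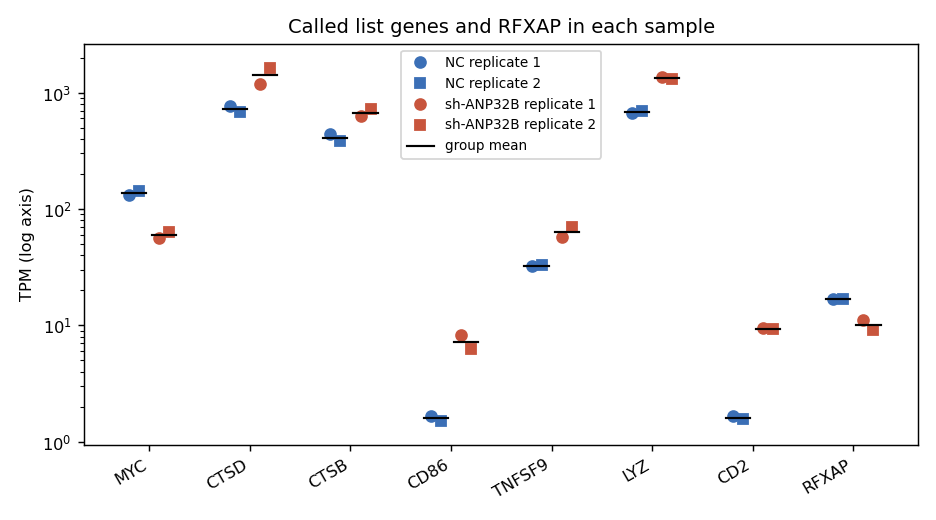
TPM (y axis, log scale) in each of the 4 samples for RFXAP and for genes of the related lists with an adjusted p under 0.05, circles for replicate 1, squares for replicate 2 and lines for group means. MYC is lower in both sh-ANP32B samples, and CTSD, CTSB, CD86, TNFSF9, LYZ and CD2 are higher in both.

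For comparison, 11 of 12 listed genes of MHC class I presentation were tested, and 0 passed by limma, with 2 at an unadjusted p under 0.05 (background 23.8%) and a median log2 fold change of 0.12. The log2 fold changes were 0.10 for HLA-B (adjusted p = 0.721), 0.17 for HLA-C (adjusted p = 0.599) and 0.21 for B2M, the light chain of class I (adjusted p = 0.418). NLRC5, the class I counterpart of CIITA, measured 10.66 and 10.13 TPM in NC against 14.66 and 13.61 TPM in sh-ANP32B. Its groups did not overlap, and its log2 fold change of 0.41 (interval −0.02 to 0.84, adjusted p = 0.233) did not pass the test. The values of HLA-B and HLA-C changed sign under other settings, and 10 of these 11 genes had a copy on an alternate contig.

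Markers of other cells that express class II were summed in each sample. The B cell markers with a value, 4 of 6, summed to 13.84 and 16.71 TPM in NC against 8.346 and 9.967 TPM in sh-ANP32B, none passed the test, and CD79A was listed at 0 in sh-ANP32B replicate 1. The monocyte markers with a value, 5 of 8, summed to 682.2 and 707.4 TPM in NC against 1380 and 1344 TPM in sh-ANP32B. Almost all of this was LYZ, the lysozyme of myeloid cells, which measured 669.4 and 696.8 TPM in NC against 1360 and 1316 TPM in sh-ANP32B.

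LYZ rose by 0.97 (SE 0.118, adjusted p = 0.0281) and was the 1 monocyte marker called, a call lost without either NC replicate (adjusted p up to 0.105 by limma). CD2, the 1 of 3 T cell markers with a value, measured 1.647 and 1.571 TPM in NC against 9.485 and 9.249 TPM in sh-ANP32B, and rose by 1.99 (SE 0.235, adjusted p = 0.0261). The 6 dendritic cell markers were not matched to a gene of the table. Of 5 markers of Kasumi-1 and myeloid blasts, 3 had a value and none passed the test. CD34 and MPO were not matched to a gene of the table, where the lowest mean of a gene was 0.5 TPM. Why they had no value was not tested. The name of the line was taken from the labels of the data. With KIT low and CD34 and MPO without a value, these listed markers did not establish that name, and the identity of the line was not tested. KIT, a receptor of progenitor cells, was low at 1.551 and 2.308 TPM in NC against 3.408 and 2.758 TPM in sh-ANP32B. CD33, a myeloid surface protein, measured 68.3 and 58.46 TPM in NC against 69.05 and 70.08 TPM in sh-ANP32B. RUNX1T1, part of the fusion, measured 17.6 and 15.57 TPM in NC against 31.2 and 26.79 TPM in sh-ANP32B, with an adjusted p of 0.0632 by limma. Both sh-ANP32B samples were above both NC samples in all 3, as in 33.2% of all genes tested. The adjusted p by limma was 0.37 for KIT and 0.619 for CD33, whose nearest values were 68.3 and 69.05 TPM. The part of the monocyte and T cell markers in the values of the class II genes was not tested.

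The genes most like CD74 and CIITA over the 4 samples were found by the root mean square difference of centred log2(TPM + 1) among 9735 genes with a mean of at least 10 TPM. For CD74 these were PANK2 (0.0111 log2 units), ATN1 (0.0134) and ZFAND2A (0.0150), and 864 genes lay within 0.1 log2 units of its pattern. For CIITA they were TMEM147 (0.0131), RBM10 (0.0155) and C19orf25 (0.0172), with 418 genes within 0.1. The class II members were left out of this search, and with 4 samples such likeness describes these samples alone.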

How the data were processed

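RNA from 4 Kasumi-1 samples (2 NC, 2 sh-ANP32B) was sequenced with an Illumina TruSeq kit. Per the submitters' processing notes, reads were aligned to hg38 with HISAT2 2.0.5. The deposited values are TPM per Ensembl gene ID, a unit identified from column sums between 997812 and 998314, and the program, annotation and filter behind them are not given in the sources used here. The lowest mean of a gene in the table was 0.5 TPM. TPM keeps no depth, so the depth of each sample is unknown and no counting interval was computed. The design allowed for counts, and as the unit was TPM the test planned for TPM was used.

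A gene was tested where at least 2 samples reached 1 TPM (16817 genes), on log2(TPM + 1) by limma 3.58.1 with an abundance trend in R 4.3.3, two-sided, over all 4 samples, with Benjamini-Hochberg adjustment, after tests on simulated data. The study's methods state in general that experiments were repeated independently, but not whether these replicates were separate cultures. The p-values therefore measure the spread between these samples, which may be technical. Symbols, positions and GC content came from GENCODE 44 (16986 of 18567 IDs matched), alternate copies from minimap2 2.31-r1302, and promoters from RefSeq. Named genes were the members, list genes past the threshold and a set of named factors, and the 3 nearest patterns to CD74 and to CIITA, while KAT2B, PRDM1, IFNGR1, MIF, CD79A, CD33, KIT and RUNX1T1 were named after their values were seen. Some list genes are counted but not reported here by name. The members and lists were chosen with earlier results of these data known. Alternatives changed the filter, pseudocount, scaling, trend, GC correction, replicate block and each replicate in turn.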

Additional observations from a re-analysis of the deposited data

How the results depend on the processing

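With 2 samples a group and no depth in TPM, modest changes of class II genes are not separated from replicate spread, and HLA values cover the primary-assembly genes alone. No member passed the adjusted threshold under any of 11 alternatives that kept all samples, over which the lowest adjusted p of a member was 0.0972 (HLA-DRA, log2 fold change −0.84 to −0.65). The ranges over these were 0.20 to 0.29 for HLA-DRB1, 0.08 to 0.32 for HLA-DMA, −0.28 to −0.18 for CIITA and 0.72 to 1.57 for HLA-DQA1 over 10 of them. CD74 turned to −0.05 with the GC correction and also with the replicate block and GC correction together. Each replicate was also left out, which leaves 1 sample in a group that is assumed to vary like the others. CD74 then ranged from −0.02 to 0.21, CIITA from −0.40 to 0.03, HLA-DRB1 from 0.19 to 0.39 and ANP32B from −3.20 to −2.88. The looser criterion gave 2 members with no filter, without the trend and with the crossed replicate block, and 0 to 1 with a replicate left out. Under the replicate block HLA-DRA did not pass it (unadjusted p = 0.0699 by limma) and HLA-DQA1 did (0.0419).

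The deviations of same-numbered samples were not positively correlated (−0.0925 by Pearson and −0.168 by Spearman over 16817 genes). With 2 samples a group this cannot tell whether same-numbered samples shared a culture or batch. The replicate block raised the genes called from 559 to 1473 of 16817, and the crossed pairing, added after seeing the data, to 1995. The GC correction gave 2557 of 15427, and the replicate block with GC correction 1853 of 15427. These totals are the background of the list counts given below for the same settings. Whether any list held more calls than this background was not tested. Without the abundance trend 0 genes were called by limma, with 3701 at an unadjusted p under 0.05, and ANP32B kept −3.04 with an adjusted p of 0.0929. Leaving out a replicate gave 273 to 4079.

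Among the lists, the other class II genes gave 1 call (HLA-DRB5) with the GC correction, the replicate block, the crossed replicate block and the block with GC correction, and 0 to 1 with a replicate left out. The promoter factors gave 2 with the GC correction and 1 with the replicate block and GC correction (0 to 2 with a replicate left out). The regulators of CIITA gave 4 with the GC correction, 3 with each replicate block setting, 2 when 1 TPM was required in all 4 samples and 0 without the trend (1 to 9). The processing genes gave 4 with the GC correction, 3 with each replicate block setting, 1 with no filter or a pseudocount of 0.1 and 0 with median-of-ratios scaling or without the trend (0 to 6). The turnover genes gave 1 with the GC correction, alone or with the replicate block (0 to 2), costimulation 3 with the GC correction, alone or with the replicate block, and 0 without the trend (1 to 3), and class I 2 with the GC correction or the crossed block and 1 with the replicate block (0 to 3).

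Reversals among list genes were small. NFYC gave −0.08 with median-of-ratios scaling, −0.07 with quantile normalization, −0.04 without mitochondrial genes, and −0.07 with the GC correction, alone or with the replicate block. IRF8 gave −0.06 with median-of-ratios scaling, −0.02 without mitochondrial genes and −0.01 with the GC correction, alone or with the block. HLA-C gave −0.06 with the GC correction, alone or with the block. With a replicate left out the ranges were −0.02 to 0.04 for NFYC, −0.06 to 0.12 for IRF8, −0.02 to 0.35 for HLA-C, −0.01 to 0.22 for HLA-B and −0.27 to 0.22 for HLA-DOB. The causes of these differences were not tested.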
